A study of Mus musculus with 16 samples.

Results

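The genes described here encode the nuclear part of the mitochondrial respiratory chain, read in mouse lung after exposure to second-hand smoke (SHS). They were chosen by name: every gene with a single symbol in the array's platform annotation beginning Ndufa, Ndufb, Ndufc, Ndufs, Ndufv, Uqcr, Cox4 to Cox8 or Atp5, plus Sdha, Sdhb, Sdhc and Sdhd. This gave 90 of the 18193 genes with a single symbol, measured by 179 of 34945 probe sets. Each gene was read at its brightest probe set, the one with the highest mean value, and 51 of the 90 genes had more than 1 probe set. Not every name that the rule takes in is a subunit. Of the 90 genes, 80 encode subunits: 6 of the complex I core, 28 accessory subunits of complex I, 4 of complex II, 8 of complex III, 17 of complex IV and 17 of complex V. A further 8 are complex I assembly factors (Ndufaf genes), and 2 are related proteins, Ndufa4l2 and Cox7a2l.

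Left lungs came from male Balb/c mice aged 15 weeks, and total RNA was hybridised to whole-genome Affymetrix mouse arrays, 4 arrays in each of 4 groups. The mice breathed sidestream smoke with a particle load of 10 mg/m3, or filtered air, in sessions of 5 hours, 7 days a week. A group name gives the exposure in utero and then that as an adult, A meaning filtered air and S meaning SHS. AA was thus kept in air at both times, AS had SHS as adults only, SA had SHS in utero only, and SS had SHS at both times. The labels call the replicates biological and the design text speaks of 4 animals in each group, but neither names a litter, a batch or a date.

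Before the results, 2 pairs of arrays stood apart: AS replicates 3 and 4, and SS replicates 1 and 2, were near-identical. Over the 90 genes they differed by a root mean square of 0.060 to 0.071 on the log2 scale, against 0.072 to 0.197 for the other 22 pairs of arrays within groups. Over the most and least variable probe sets the ratio of differences was 1.24 to 1.35 for these pairs and 2.84 to 5.96 for the others. Averaging each pair to 1 value per probe set gave 14 samples in all: 4 AA, 4 SA, 3 AS and 3 SS. Lung markers were bright in all of them: Sftpc of alveolar type 2 cells lay between 15.01 and 15.10, and Scgb1a1 of club cells between 14.9 and 15.0, on the log2 scale. In whole lung, fewer cells of a type and less RNA per cell cannot be told apart.

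The respiratory chain carries electrons from NADH (complex I) and succinate (complex II) through coenzyme Q, complex III and cytochrome c to oxygen at complex IV, and complex V, the ATP synthase, uses the proton gradient that complexes I, III and IV build. Most subunits are encoded in the nucleus, and a few catalytic ones in mitochondrial DNA. Several complex IV subunits exist in paired forms, a common one and one typical of heart and skeletal muscle, of testis, or, for Cox4i2, of the lung and its vessels.

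The upstream sequences of these genes are given as a description, and no relation between them and the values was tested. RefSeq windows on the GRCm38.p6 build, of 250 bases before and 50 after a gene's start, were found for 74 of the 90 genes, 79 windows in all. Their median number of CG dinucleotides was 20, against 7 over all 32851 windows. On both strands, the letters GCGCANGCG, part of the motif of nuclear respiratory factor 1, stood in 26.6% of the windows of these genes and in 6.25% of all windows. The letters AAGATGGC of the YY1 motif stood in 12.7%, against 2.75%, and one of those windows belonged to Ndufs7. For CCGGAAGT of GABPA the shares were 6.33% and 3.89%, and for TCAAGGTCA of ERR-alpha 2.53% and 0.423%. The E-box letters CAGCTG, bound by muscle factors among others, stood in 7.59% against 16.3%, and CTATTTATA of MEF2 in no window of these genes, against 0.429% of all. Besides the muscle form Cox8b, the genes with E-box letters were Atp5b, Ndufa8, Ndufb10, Ndufs5 and Ndufv2, none of them a muscle form. Among the 59 matches in these windows, 0 overlapped a match of another motif, and a match is a description of letters, not of binding. The stretches below run from 148 bases before to 2 bases after the start of the common form Cox6a1 (chr5:115348957-115349106, minus strand), the common form Cox8a (chr19:7217615-7217764, minus strand) and its muscle form Cox8b (chr7:140900445-140900594, minus strand), and the common form Cox7a2 (chr9:79759852-79760001, minus strand) and its muscle form Cox7a1 (chr7:30184023-30184172, plus strand). Capitals mark the NRF1 letters in Cox6a1, the GABPA letters, read on the other strand, in Cox8a and the E-box in Cox8b. The stretches of Cox7a2 and Cox7a1 hold none of the letters searched.
Cox6a1: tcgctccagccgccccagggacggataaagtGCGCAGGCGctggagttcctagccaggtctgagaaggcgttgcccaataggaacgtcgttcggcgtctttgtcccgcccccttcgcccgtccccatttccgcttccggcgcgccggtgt
Cox8a: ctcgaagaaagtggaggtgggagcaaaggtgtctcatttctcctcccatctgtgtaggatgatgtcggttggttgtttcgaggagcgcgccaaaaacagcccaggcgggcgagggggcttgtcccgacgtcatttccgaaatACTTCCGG
Cox8b: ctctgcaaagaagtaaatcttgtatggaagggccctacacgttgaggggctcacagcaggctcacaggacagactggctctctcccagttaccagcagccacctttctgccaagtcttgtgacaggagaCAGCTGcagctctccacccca
Cox7a2: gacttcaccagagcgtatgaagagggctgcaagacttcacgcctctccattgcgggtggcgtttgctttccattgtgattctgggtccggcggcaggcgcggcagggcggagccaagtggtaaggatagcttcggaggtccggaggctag
Cox7a1: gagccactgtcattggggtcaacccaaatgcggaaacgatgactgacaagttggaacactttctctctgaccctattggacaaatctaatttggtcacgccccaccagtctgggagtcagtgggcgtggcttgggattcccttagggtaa

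Adult SHS was compared with adult air after air in utero (AS minus AA) and, separately, after SHS in utero (SS minus SA), and the mean adult effect is the average of both differences. One gene of the 90 passed the threshold, an adjusted p of 0.05 by limma with Benjamini-Hochberg adjustment over all 45037 probe sets: Ndufs7, a core subunit of complex I, was lower after adult SHS in the mean adult effect. In that effect 6.27% of all genes passed. No gene of the 90 passed in AS minus AA, where 1.12% of all genes did, or in SS minus SA, where 1.91% did. At an unadjusted p under 0.05, 10 of the 90 genes were named in AS minus AA, 3 higher and 7 lower, against 18.9% of all genes. In SS minus SA there were 5, against 15.5%, and in the mean adult effect 9, 2 higher and 7 lower, against 26%. The share of genes of the chain past this looser limit was therefore below the background in each of these comparisons.

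The differences were small. The median over the 90 genes was -0.036 in AS minus AA, -0.015 in SS minus SA and -0.016 in the mean adult effect, on the log2 scale, while the medians over all 18193 genes, read in the same way, were 0.016, -0.0072 and 0.0046. Over all probe sets they were 0.017, 0.0094 and 0.013. Below 0 lay 57 of the 90 genes in AS minus AA and 54 in SS minus SA. The comparisons share no sample, and 37 genes lay below 0 in both (41.1%, against 32% of all genes) and 16 above 0 in both (17.8%, against 33.7%). The median of the 90 genes in each sample, relative to the AA mean of each gene, was 0.0031 ± 0.019 in AA (SD, n = 4), -0.031 ± 0.012 in AS (n = 3), -0.016 ± 0.025 in SA (n = 4) and -0.026 ± 0.018 in SS (n = 3). The AS samples lay below the AA samples without overlap, from -0.045 to -0.023 against -0.013 to 0.029, and SS overlapped SA.

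The intervals bound how large an effect could be. In the mean adult effect, the 95% confidence interval of 78 of the 90 genes lay within a 1.2-fold change in either direction, and that of all 90 within a 1.5-fold change. The median absolute effect was 0.037, against 0.082 over all genes and 0.071 over the 6302 genes with a mean log2 value above 9. At the 90th percentile it was 0.122 for the chain, 0.204 for all genes and 0.195 for the bright genes. Values also varied less between mice of a group: the median within-group SD was 0.065 for the chain, 0.114 for all genes and 0.093 for the bright genes. Brightness goes with small SDs on an array, and 76 of the 90 genes had a mean log2 value above 9. Only Cox7b2 and Ndufb4 lay below the median level of all probe sets.

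**Figure D1:**
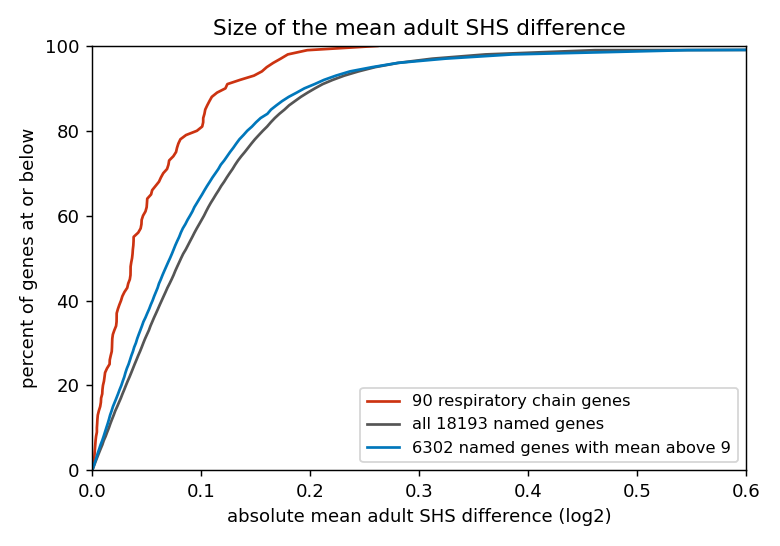
Absolute mean adult effect of SHS (log2, x axis) against the percentage of genes at or below that value (y axis), for the 90 respiratory chain genes, all 18193 genes and the 6302 bright genes. The curve of the chain lies to the left of both others, with a median of 0.037 against 0.082 for all genes.

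In complex I, which oxidises NADH, all 6 core subunits had a mean adult effect below 0, with a median of -0.060, but only Ndufs7 passed the test. Ndufs7 carries the last iron-sulphur cluster before coenzyme Q. Its log2 values were 11.49, 11.38, 11.48 and 11.48 in AA, 11.25, 11.27 and 11.04 in AS, 11.48, 11.47, 11.40 and 11.43 in SA, and 11.41, 11.34 and 11.25 in SS. AS lay wholly below AA, and SS overlapped SA at its highest sample. The mean adult effect was -0.19 ± 0.05 (standard error of the fit, as for every ± on a difference below), which is 12.3% lower, with a 95% interval from -0.29 to -0.085 and an adjusted p of 0.0374. The difference was -0.27 ± 0.07 in AS minus AA (adjusted p = 0.0615) and -0.11 in SS minus SA, and the difference between these did not pass (0.16 ± 0.10, adjusted p = 0.666). The second probe set of Ndufs7 gave a mean adult effect of 0.01 ± 0.05 (adjusted p = 0.925), so the result belongs to the brightest probe set and not to both.

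The Ndufs7 call rests on a narrow margin. With single samples left out, its adjusted p was 0.0635, 0.0566 and 0.0609 on leaving out AA replicates 1, 3 and 4, 0.0604 without the averaged AS replicates 3 and 4, 0.0665, 0.0626 and 0.0538 without SA replicates 1, 2 and 3, 0.0512 without the averaged SS replicates 1 and 2, and 0.0835 and 0.0915 without SS replicates 3 and 4. The effect stayed below 0 each time. Averaging both probe sets of the gene gave -0.09 (adjusted p = 0.136). With the replicate number as a block the adjusted p was 0.0714.

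The other core subunits of complex I had smaller effects. Ndufs1, the largest subunit of the NADH-oxidising arm, had a mean adult effect of -0.09 ± 0.05 (adjusted p = 0.215), and Ndufv1, which binds NADH and flavin, -0.06 ± 0.05 (0.41). For Ndufs3, Ndufs8 and Ndufv2, all in the same arm, it was -0.06, -0.02 and -0.01. Among the 28 accessory subunits the median was -0.025, with 19 below 0 and none past the threshold. Ndufb3, of the membrane arm, had log2 values of 10.80, 10.77, 10.84 and 10.82 in AA and 10.68, 10.62 and 10.67 in AS, which do not overlap. It had 10.76, 10.77, 10.71 and 10.71 in SA and 10.76, 10.78 and 10.81 in SS, which do. Its difference was -0.15 ± 0.05 in AS minus AA (adjusted p = 0.142), and the interaction was 0.20 ± 0.08 (adjusted p = 0.426), the smallest adjusted p of the 90 genes for that test.

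Complex II, succinate dehydrogenase, also belongs to the citric acid cycle. It has the fewest genes of the complexes here and had the narrowest range of mean adult effects. The mean adult effects of its 4 subunits lay between -0.0043 (Sdhc) and 0.011 (Sdha). The separate comparisons ranged wider, from -0.052 (Sdhb) to 0.051 (Sdhc) in AS minus AA and from -0.060 (Sdhc) to 0.048 (Sdhb) in SS minus SA. Sdhb and Sdhc thus changed sign between them, and their differences largely cancelled in the mean. Sdha, which oxidises succinate, stayed between 11.40 and 11.54 in all 14 samples, and its 95% interval ran from -0.078 to 0.10. Sdhb, the iron-sulphur subunit, had an effect of -0.0021 with an interval from -0.094 to 0.090.

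In complex III, which passes electrons from coenzyme Q to cytochrome c, Uqcrb and Uqcrc1 stood at opposite ends. Uqcrb, a small subunit near the coenzyme Q site, had log2 values of 13.69, 13.66, 13.69 and 13.71 in AA, 13.56, 13.54 and 13.54 in AS, 13.64, 13.71, 13.73 and 13.79 in SA, and 13.63, 13.62 and 13.58 in SS. Adult SHS lay below adult air without overlap in both comparisons. The mean adult effect was -0.12 ± 0.04 (adjusted p = 0.0732), which did not pass. Uqcrc1, a core protein of the complex, had 10.82, 10.71, 10.77 and 10.75 in AA, 10.99, 10.74 and 11.11 in AS, 10.82, 10.76, 10.68 and 10.82 in SA, and 10.91, 10.93 and 10.82 in SS. AS overlapped AA through 1 sample, and the lowest SS value was just above the highest SA value. Its mean adult effect was 0.15 ± 0.06 (adjusted p = 0.113), and it passed at 0.20 without AS replicate 2 (0.0231). The Rieske iron-sulphur protein Uqcrfs1, which takes electrons from coenzyme Q, had 0.0035 ± 0.045, and Uqcrc2, the other core protein, 0.10.

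Genes whose samples did not overlap were no more frequent here than elsewhere. In AS minus AA, 11 of the 90 genes had groups apart, 2 higher and 9 lower, against 16.6% of all genes. In SS minus SA there were 13, 4 higher and 9 lower, against 18.9%. Only Uqcrb and Cox8c had groups apart in both, 2.22% of the 90 genes against 3.90% of all.

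**Figure D2:**
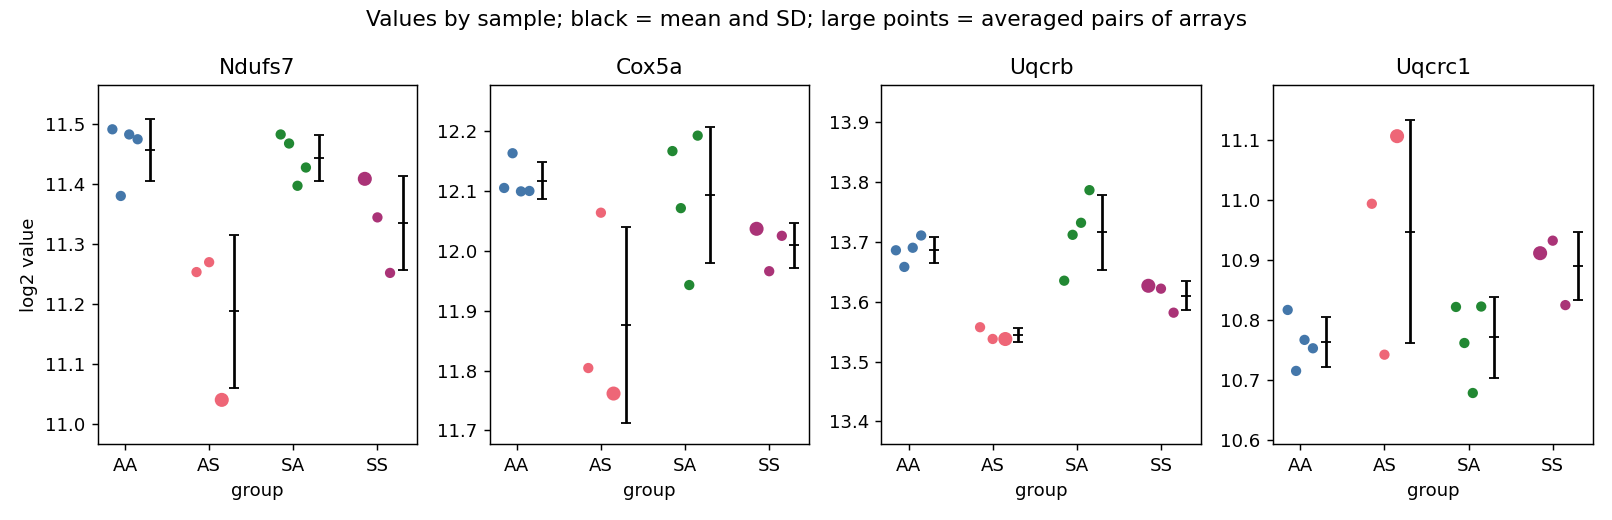
Log2 values (y axis) of Ndufs7, Cox5a, Uqcrb and Uqcrc1 in each sample of AA, AS, SA and SS (x axis), with the group mean and SD in black and averaged pairs of arrays as large points. Ndufs7, Cox5a and Uqcrb lie lower in AS than in AA without overlap, while Uqcrc1 overlaps between them.

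The 17 genes of complex V, which makes ATP, had a median mean adult effect of -0.0023, and none passed even at an unadjusted p under 0.05. Atp5a1 and Atp5b, the subunits of the catalytic head, had effects of 0.016 ± 0.043 and 0.024 ± 0.047. The lowest effect was that of Atp5e, the small epsilon subunit of the central stalk (-0.10 ± 0.08, adjusted p = 0.41). The highest was that of Atp5l, subunit g of the membrane part (0.06 ± 0.05, adjusted p = 0.428).

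**Figure D3:**
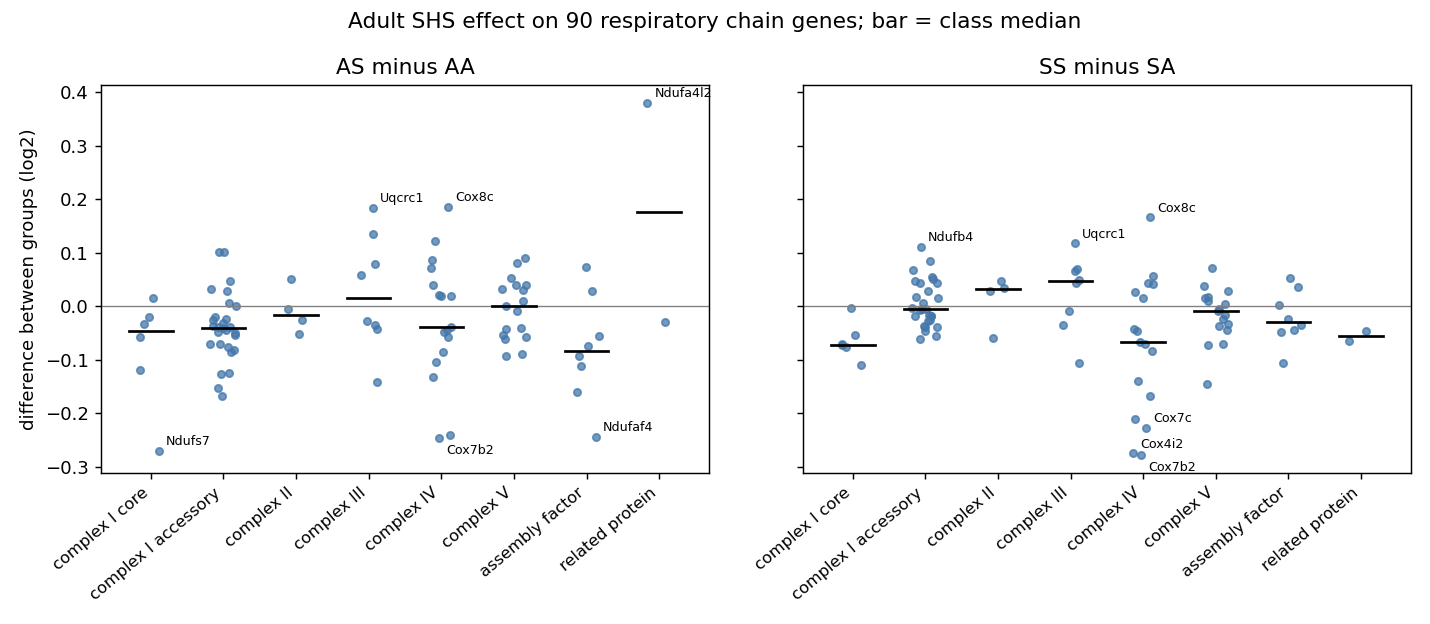
Difference between adult SHS and adult air (log2, y axis) for each of the 90 genes, by complex or class (x axis), after air in utero (AS minus AA, left) and after SHS in utero (SS minus SA, right), with the class median as a bar. In AS minus AA the values run from -0.27 (Ndufs7) to 0.38 (Ndufa4l2), and in SS minus SA from -0.28 (Cox7b2) to 0.17 (Cox8c).

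Complex IV, cytochrome c oxidase, held 5 of the 9 genes with an unadjusted p under 0.05 in the mean adult effect. That is 5 of its 17 genes, a share near the 26% of all genes at this limit. Cox5a, a nuclear subunit on the matrix side, had log2 values of 12.10, 12.16, 12.10 and 12.10 in AA, 11.80, 12.06 and 11.76 in AS, 12.17, 12.07, 11.94 and 12.19 in SA, and 12.04, 11.97 and 12.03 in SS. AS lay below AA without overlap, and SS lay inside the range of SA. The mean adult effect was -0.16 ± 0.06 (adjusted p = 0.0965), and the gene's other probe sets gave -0.12 (0.147) and -0.13 (0.179). Ndufa4, once assigned to complex I and now to complex IV, had 12.00, 12.11, 12.06 and 12.07 in AA, 11.89, 12.00 and 12.10 in AS, 12.07, 12.05, 12.13 and 12.06 in SA, and 11.93, 11.91 and 11.89 in SS. SS lay below SA without overlap (-0.17 ± 0.06, adjusted p = 0.224, the smallest of the 90 genes in that comparison). Its mean adult effect was -0.11 (adjusted p = 0.13). Cox7c, a small membrane subunit, had its highest values in SA, 8.01, 7.73, 7.59 and 7.97, against 7.49, 7.59, 7.73 and 7.49 in AA and 7.63, 7.53 and 7.64 in SS, and the groups overlapped.

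The common forms of the paired complex IV subunits had small effects. Cox4i1 lay between 12.66 and 12.84 and Cox6a1 between 13.16 and 13.26 in all 14 samples. The mean adult effects were 0.0018 ± 0.042 for Cox4i1, 0.018 ± 0.039 for Cox6a1, 0.000068 ± 0.040 for Cox6b1, -0.08 ± 0.04 for Cox7a2 and 0.03 ± 0.06 for Cox8a. None passed the test, and the intervals of Cox4i1 (-0.087 to 0.091) and Cox6a1 (-0.066 to 0.10) lay within a 1.2-fold change.

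The muscle forms differed between mice of the same group. Within-group SDs were 0.296 for Cox7a1, the highest of the 90 genes, 0.186 for Cox8b and 0.163 for Cox6a2. Cox7a1 had log2 values of 8.48, 8.13, 8.21 and 7.96 in AA, 8.60, 8.36 and 8.0 in AS, 8.06, 8.64, 8.15 and 7.64 in SA, and 8.04, 8.24 and 7.95 in SS. Cox6a2 had 9.85, 9.55, 9.89 and 9.70 in AA, 9.96, 9.81 and 9.72 in AS, 9.61, 10.03, 9.52 and 9.63 in SA, and 9.71, 9.67 and 9.58 in SS. Cox8b had 9.01, 8.86, 8.84 and 8.66 in AA, 8.77, 8.84 and 8.52 in AS, 9.01, 9.05, 8.79 and 8.47 in SA, and 8.53, 8.73 and 8.60 in SS. For all of these genes SA replicate 2 was the highest sample, and adult air and adult SHS overlapped. The mean adult effects were 0.04 ± 0.14 for Cox7a1, 0.02 ± 0.08 for Cox6a2 and -0.17 ± 0.09 for Cox8b (adjusted p = 0.25).

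Heart muscle markers moved with these forms from mouse to mouse. Mouse pulmonary veins carry a sleeve of cardiac muscle, so such RNA can be part of a lung sample. The mean of 14 cardiac muscle markers, all measured and none past the threshold in any comparison, was 0.33, -0.18, 0.08 and -0.24 in AA relative to the AA mean, 0.25, 0.12 and -0.40 in AS, -0.15, 0.59, -0.16 and 0.02 in SA, and -0.29, -0.06 and -0.33 in SS. All groups overlapped. In deviations from the group means over the 14 samples, this mean and Cox6a2 had a Pearson r of 0.86 (exact permutation p within groups 0.00299, adjusted over 8 relations 0.0239) and a Spearman rho of 0.807 (p = 0.00646, adjusted 0.0341). Without SA replicate 2 and AA replicate 1, whose marker deviations lay farthest from the median deviation, r was 0.749. For Cox7a1, r was 0.816 (p = 0.00805, adjusted 0.0322) and rho 0.789 (p = 0.00854, adjusted 0.0341), and r was 0.648 without those samples. For Cox8b, r was 0.60 (p = 0.0935, adjusted 0.215) and rho 0.626 (p = 0.052, adjusted 0.139), with 0.401 without those samples, so this relation did not pass. SA replicate 4 had the lowest Cox7a1 value (7.64) at a cardiac mean near that of AA (0.02). These permutation tests were two-sided. Of 10 skeletal muscle markers, Atp2a1 passed by limma in AS minus AA (0.37, adjusted p = 0.0401), where 1.12% of all genes did. Tnni2 passed in the mean adult effect (0.19, adjusted p = 0.039), where 6.27% did. The relation of these 10 markers with the muscle forms was not tested. What part the marker-bearing cells had in the values of the muscle forms was not tested either.

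**Figure D4:**
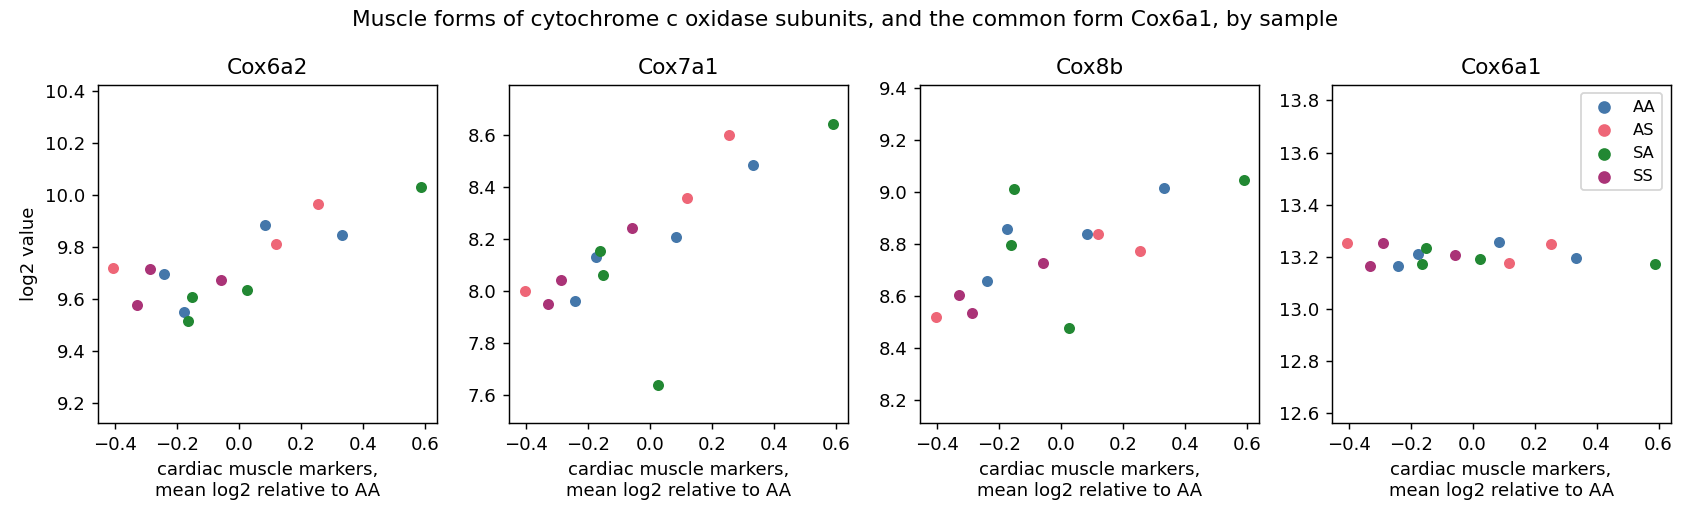
Log2 values (y axis) of the muscle forms Cox6a2, Cox7a1 and Cox8b and of the common form Cox6a1 in each of the 14 samples, against the mean of 14 cardiac muscle markers relative to AA (log2, x axis), coloured by group. The muscle forms are highest in the SA sample with the highest marker mean (0.59), and Cox6a1 stays between 13.16 and 13.26.

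Cox4i2 and Ndufa4l2, the paralogues of Cox4i1 and Ndufa4, are both known as genes induced in low oxygen and as genes of vessel wall cells. Cox4i2 had log2 values of 7.75, 7.92, 7.72 and 7.72 in AA, 7.67, 7.66 and 8.21 in AS, 7.86, 7.86, 7.92 and 7.94 in SA, and 7.58, 7.67 and 7.60 in SS. SS lay below SA without overlap, while AS held both the highest sample of all and low ones. Ndufa4l2 had 8.90, 8.90, 8.80 and 8.93 in AA, 9.10, 8.98 and 9.72 in AS, 8.89, 8.97, 9.18 and 8.87 in SA, and 9.02, 8.89 and 8.83 in SS. AS lay above AA without overlap, and SS overlapped SA. The highest value of both genes came from 1 sample, the averaged AS replicates 3 and 4.

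That sample set the spread of both genes. Ndufa4l2 differed by 0.38 ± 0.14 in AS minus AA (adjusted p = 0.146) and by 0.16 without that sample (0.456). The interaction, SS minus SA less AS minus AA, was -0.45 ± 0.19 (adjusted p = 0.495) with it and -0.22 (0.651) without it. Cox4i2 differed by -0.27 ± 0.11 in SS minus SA (adjusted p = 0.257), and without the AS sample, which enters only through the common spread, the same -0.27 passed with an adjusted p of 0.0362. Its mean adult effect was -0.10 ± 0.08 (adjusted p = 0.429) with the sample and passed at -0.19 (0.036) without it. In this sample the mean of 6 endothelial markers stood at 0.32 relative to AA, against -0.14 to 0.05 in the 13 others, that of alveolar type 2 markers at 0.21, against -0.07 to 0.04, and that of 13 hypoxia-inducible genes at 0.27, against -0.17 to 0.22. Pericyte markers stood at -0.02 there, within the -0.11 to 0.11 of the other samples. The same sample was also highest for alveolar type 1 markers (0.13). It was lowest for cardiac muscle markers (-0.40), biogenesis regulators (-0.19) and citric acid cycle genes (-0.09). For smooth muscle markers (0.23) it lay inside the range of the others. The part of these markers in the values of both genes was not tested. Over the 14 samples, deviations of Cox4i2 and Ndufa4l2 had r = 0.811 (exact permutation p = 0.135, adjusted 0.215) and rho = 0.459 (p = 0.22, adjusted 0.293), and r was 0.605 without that sample and AA replicate 2. None of the relations of these genes with pericyte markers or hypoxia-inducible genes passed, with adjusted permutation p-values from 0.215 to 0.51.

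**Figure D5:**
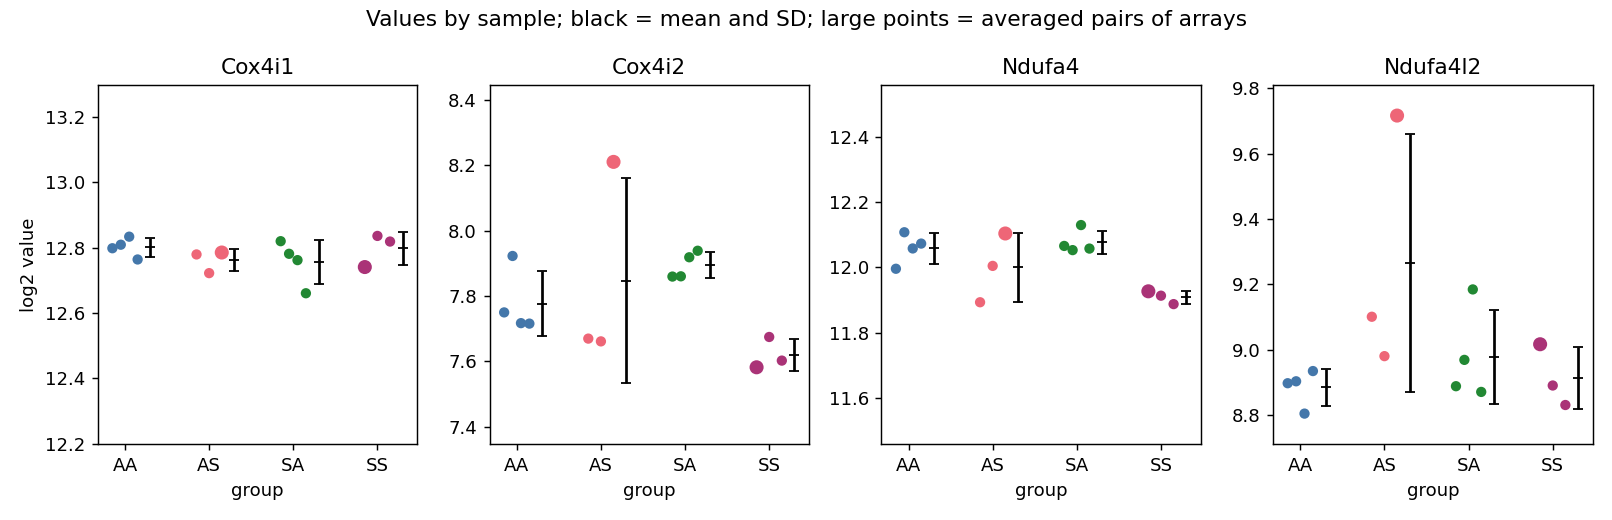
Log2 values (y axis) of Cox4i1 and Ndufa4 and of their paralogues Cox4i2 and Ndufa4l2 in each sample of AA, AS, SA and SS (x axis), with the group mean and SD in black and averaged pairs of arrays as large points. The averaged AS replicates 3 and 4 hold the highest value of Cox4i2 (8.21) and of Ndufa4l2 (9.72).

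Forms known from testis gave the largest mean adult effects in either direction. Cox8c had log2 values of 7.86, 7.72, 7.90 and 7.87 in AA, 7.91, 8.04 and 8.12 in AS, 7.70, 7.80, 7.74 and 7.88 in SA, and 8.0, 7.90 and 7.94 in SS. Adult SHS lay above adult air without overlap in both comparisons, by little in each. The mean adult effect was 0.18 ± 0.05 (adjusted p = 0.0521), just short of the threshold, and it passed without AS replicate 1 (0.0381) or SA replicate 4 (0.0353). A dimmer probe set of Cox8c passed in AS minus AA (0.51, adjusted p = 0.0408) and in the mean adult effect (0.32, adjusted p = 0.0319). Cox7b2 had 4.29, 4.02, 4.03 and 4.03 in AA, 3.76, 3.90 and 3.88 in AS, 4.28, 4.08, 4.04 and 4.38 in SA, and 3.91, 3.74 and 4.11 in SS. Its mean adult effect of -0.26 ± 0.07 had an adjusted p that rounds to 0.05 and did not pass, but passed without SS replicate 4 (0.0384), at a level far below the median of all probe sets, 6.92. Cox6b2 had a mean adult effect of -0.12 (adjusted p = 0.125).

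Among the dimmer probe sets of all 90 genes, 89 in number, 2 passed in the mean adult effect and 1 in AS minus AA. Besides Cox8c this was Ndufab1, the mitochondrial acyl carrier protein, which is also a complex I subunit. The dimmer probe set had a mean adult effect of -0.37 (adjusted p = 0.0394), while its brightest probe set gave 0.0070. Over all 179 probe sets of these genes 1.68% passed in the mean adult effect, against 5.95% of all probe sets tested.

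In mice kept in air as adults (SA minus AA), the in-utero comparison had a median absolute difference of 0.030 over the 90 genes, against 0.053 in AS minus AA and 0.044 in SS minus SA. Over all genes these medians were 0.056, 0.103 and 0.084, so the order was not particular to the chain. SA and AA hold 4 samples each, AS and SS 3. No gene of the 90 passed, as none of all genes did (0%). At an unadjusted p under 0.05 there was 1 gene, Cox7c, against 4.95% of all genes. Cox7c differed by 0.25 ± 0.09 (adjusted p = 0.755), Uqcrc2 by 0.15, Cox4i2 by 0.12, and at the other end Ndufaf4 by -0.15, Uqcrq by -0.10 and Ndufaf8 by -0.10. The interval lay within a 1.2-fold change for 82 of the 90 genes. The groups were apart for 1 gene, against 3.88% of all genes: Atp5k, the e subunit of the ATP synthase, at -0.07 ± 0.05.

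In mice given SHS as adults (SS minus AS), the median absolute difference was 0.056, against 0.091 over all genes. No gene of the 90 passed by limma, against 0.764% of all genes, and 2 had an unadjusted p under 0.05, against 13%. These were Ndufa4l2 at -0.35 ± 0.15 (adjusted p = 0.302) and Ndufb3 at 0.13 ± 0.06 (0.355). The largest other differences were -0.24 ± 0.21 for Cox7a1, -0.23 ± 0.12 for Cox4i2, and 0.15 for Ndufs7 and 0.13 for Ndufaf1 and Cox5a. Groups were apart for 10 genes, 7 higher and 3 lower, against 18.5% of all genes. SS minus AS shares its AS samples with AS minus AA, so a high or low AS value enters both with opposite signs.

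The difference between both adult effects, the interaction, passed for no gene of the 90, against 0.115% of all genes. There were 4 genes with an unadjusted p under 0.05, 2 higher and 2 lower, against 7.34%. Besides Ndufb3, Ndufa4l2 and Cox4i2 (-0.35 ± 0.15, adjusted p = 0.516), this was Ndufaf4, an early complex I assembly factor. Ndufaf4 had log2 values of 9.46, 9.74, 9.76 and 9.63 in AA, 9.38, 9.51 and 9.32 in AS, 9.56, 9.34, 9.55 and 9.53 in SA, and 9.58, 9.64 and 9.37 in SS. The groups overlapped, and the interaction was 0.28 ± 0.13 (adjusted p = 0.543). For this test, whose errors are wider, 54 of the 90 intervals lay within a 1.2-fold change and 87 within a 1.5-fold change.

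Genes that build the chain were read in the mean adult effect, where 6.27% of all genes passed. Of 8 Ndufaf assembly factors 7 had a mean adult effect below 0 and none passed, with Ndufaf2 lowest (-0.11, adjusted p = 0.148). Of 36 further assembly factors measured from a list of 39, 2 passed, a share near that background, and both were lower: Tmem126b, which helps build complex I, had -0.23 (adjusted p = 0.023), and Coa6, which helps carry copper to complex IV, -0.17 (0.0348). At an unadjusted p under 0.05 by limma there were 15 of the 36, a larger share than the 26% of all genes. The list's median was -0.06, and Ttc19, of complex III, had 0.38 without passing (adjusted p = 0.0532). Among 17 regulators of mitochondrial biogenesis and mitochondrial DNA expression, 2 passed and both were lower. Of the 17, 8 had an unadjusted p under 0.05 by limma, again a larger share than the 26% of all genes. Tfam, which packages mitochondrial DNA and helps start its transcription, fell by 0.19 ± 0.05 (mean adult effect -0.19, adjusted p = 0.0418). Tfb1m, which methylates the ribosomal RNA of mitochondria, fell by 0.24 ± 0.06 (mean adult effect -0.24, adjusted p = 0.0234). The median of that list was -0.13, while the biogenesis coactivator Ppargc1a had 0.12 and did not pass. In AS minus AA and in SS minus SA none of these lists had a gene past the threshold.

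Other mitochondrial lists were read in the same mean adult effect, where 6.27% of all genes passed and 26% had an unadjusted p under 0.05. Of 76 mitochondrial ribosomal proteins 2 passed, Mrps2 (-0.17, adjusted p = 0.0301) and Mrpl18 (-0.16, 0.0417), with a median of -0.04. Of 15 import proteins measured, Timm9, a chaperone between the membranes, passed at -0.19 (0.0465). In the list of cytochrome c and coenzyme Q genes, 13 measured, Coq10b, a coenzyme Q binding protein, rose by 0.66 ± 0.16 (adjusted p = 0.0312). None of 15 citric acid cycle and pyruvate dehydrogenase genes and none of 13 fatty acid oxidation genes passed by limma, with 0 and 3 at an unadjusted p under 0.05. Their medians were -0.04 and -0.03.

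Among 13 genes of mitochondrial stress and uncoupling, Atf4, a stress transcription factor, rose by 0.32 (adjusted p = 0.013) in the mean adult effect. The share of all genes past the threshold there was 6.27%. Of 13 hypoxia-inducible genes, Ddit4, an inhibitor of mTOR signalling, rose by 1.06 (0.00347) and Ndrg1 by 0.33 (0.0322). Only 1 of the 13 protein genes of mitochondrial DNA was matched on the array, ND5 of complex I, with a mean adult effect of 0.07 ± 0.06 (adjusted p = 0.511).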

How the data were processed

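Per the labels, total RNA from left lungs of mice was measured on 16 Affymetrix arrays. The authors deposited a table of values that are log2 by their range (2.40 to 15.11), 1 for each array at each probe set. Array medians lay between 6.90 and 6.93, so the arrays had been brought to a common level, by a method not given in the sources used here. Differences are therefore relative to that normalization, and no detection call was made. Per the submitters' processing notes, limma was used.

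After 2 near-identical pairs had been averaged, 14 samples entered a model of 4 group means (limma 3.58.1, R 4.3.3, 10 residual degrees of freedom), fitted to 45037 probe sets without 64 controls. P-values are two-sided, with Benjamini-Hochberg adjustment across these and a threshold of 0.05, and the fit was tested on simulated data. Gene symbols came from the platform annotation and were updated through Entrez identifiers to RefSeq GRCm38.p6, which left the 90 genes unchanged. Permutations were exact, over 20736 reorderings within groups.

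The genes and lists were chosen with earlier results of these data known. The naming rule covered all genes past the threshold, the 3 largest differences in each direction per comparison, the paired forms and the catalytic subunits. From each list described it covered genes past the threshold and the largest differences. Not all of these differences are printed above. Among them are Ndufb4 (0.11) and Cox7c (-0.23) in SS minus SA, and Cox7c (-0.18) and Ndufaf1 (0.16) in the interaction. From the lists, some of the largest differences are left out, such as that of Ankrd37. Uqcrb, Sdhc, Ndufs3, Atp5e, Atp5k, Atp5l, Ndufab1, Ndufaf2 and Ppargc1a fall outside that rule and were chosen after their values were seen. Alternatives were the 16 arrays as separate samples, other probe set choices, other scalings, a filter on dim probe sets, other variance settings, array weights, the replicate block and each sample left out. The labels do not say whether replicate numbers pair the mice. Deviations of same-numbered samples correlated between -0.17 and 0.32, which cannot decide it, since paired animals need not correlate.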

Additional observations from a re-analysis of the deposited data

Results flagged for a closer look

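Of 70 groups of 4 samples examined for a sample far from the others, 6 held one, where chance alone flags about 1 in 20. In AA, replicate 2 was high for Cox4i2 (7.92, against 7.72 to 7.75 in the others) and for Cox5a (12.16, against 12.10 to 12.11), and low for Ndufs7 (11.38, against 11.48 to 11.49). AA replicate 1 was high for Cox7b2 (4.29, against 4.02 to 4.03). In SA, replicate 3 was high for Ndufa4 (12.13, against 12.05 to 12.07), and replicate 2 was low for Ndufaf4 (9.34, against 9.53 to 9.56). AS and SS, with 3 samples each, could not be examined in this way.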

How the results depend on the processing

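No difference of a named gene changed sign with a call: of 4191 recomputed values for 164 named differences, 0 reversed, 24 newly passed and 12 no longer passed, and all 12 were Ndufs7 in the mean adult effect. Its value there ran from -0.21 to -0.09 with adjusted p-values from 0.0144 to 0.136, under the threshold in 13 of 25 alternatives. The number of genes called in the mean adult effect, 1 as reported, was 6 with all 16 arrays as separate samples or with array weights, 3 with gene means over probe sets, with further quantile normalization, with bright probe sets only or with a trended robust variance, 2 with arrays centred on their medians, 0 with the replicate block, and between 0 and 3 with single samples left out, 3 without AS replicate 2, and 2 without AS replicate 1 or SA replicate 4. In AS minus AA, 0 as reported, it was 3 with 16 arrays, 1 with gene means, bright probe sets only or the trended robust variance, and 0 to 1 with single samples left out (1 without AS replicate 2). In SS minus SA it was 0 to 1 with single samples left out, the 1 being Cox4i2 without the averaged AS replicates 3 and 4. In SA minus AA, SS minus AS and the interaction it was 0 under every alternative run. With quantile normalization the median over the genes was -0.016 in AS minus AA, where -0.036 is reported, and -0.0069 in SS minus AS, where 0.016 is reported. The causes of these shifts were not tested. The fit with only the groups compared could not be made for the mean adult effect and the interaction, which need all groups. Newly past the threshold in the mean adult effect were, among others, Cox8c (adjusted p = 0.0151) and Cox7b2 (0.0183) with 16 arrays. The number of arrays limits the precision: with 3 or 4 samples a group, between 54 and 82 of the 90 intervals lay within a 1.2-fold change, by comparison, and the deposited values allow no detection call.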
